A study of Mus musculus with 18 samples.

Results

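Integrin subunit mRNAs were measured in mouse eosinophils that were cultured with apoptotic cells (ACs) and with Type 1 or Type 2 stimuli. The 8 subunits described here were chosen by symbol, as a named family of surface receptors: Itgal, Itgam, Itgax and Itgb2 of the beta2 family, Itga4, Itgb1 and Itgb7 of the alpha4 family, and Itgb3. They are 8 of the 54446 genes in the table, each matched to 1 Ensembl identifier, and all 8 passed the filter on low values in every comparison. Libraries were made by the CEL-Seq2 protocol, which reads the 3 prime end of each mRNA, so levels were compared between libraries and not between genes.

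Groups of 3 libraries were compared, 6 of them and 18 libraries in all. The Type 1 experiment (12 libraries) set IFN-γ + E. coli + ACs, IFN-γ + ACs and E. coli + ACs beside cultures with ACs and no other stimulus. The study describes the combination as IFN-γ first and E. coli after it, and the interval is not given in the sources used here. The IL-4 experiment (6 libraries) set IL-4 + ACs beside its own ACs cultures. The labels have no field for the experiment, so each ACs library was assigned to an experiment by the wording of its description. ACs were in every group, controls included, so none of the comparisons shows what ACs themselves did, and libraries without ACs were not analysed here. By the study's methods the eosinophils were peritoneal cells of Il5Tg mice, in which an IL-5 transgene expands eosinophils, while the label gives the strain as C57BL/6. The age of these mice is not given in the sources used here. To make ACs, thymocytes from wild type animals were treated with dexamethasone, and these were added at 5 per eosinophil for 18 h in the co-cultures that the methods describe, and the eosinophils were then drawn out with anti-Siglec-F beads. The study's methods state 3 biological replicates, and a legend of the study says of eosinophils with and without ACs that each came from its own mouse. For the stimulated libraries the labels name no animal, so p-values measure the spread between these libraries.

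Integrins are pairs of an alpha and a beta chain that hold leukocytes to other cells and to matrix. The beta2 chain pairs with alphaL (LFA-1, which binds ICAMs), alphaM (Mac-1, also complement receptor 3, which binds iC3b, fibrinogen and ICAM-1) and alphaX (p150,95), and a surface beta2 integrin needs both chains. The alpha4 chain pairs with beta1 (VLA-4, which binds VCAM-1 and fibronectin) or with beta7 (which binds MAdCAM-1 on gut vessels), and eosinophils are known for using both to enter tissue. Beta3 pairs with alphaV, a vitronectin receptor that phagocytes use to bind apoptotic cells through bridging proteins, or with alphaIIb on platelets.

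Itgal, Itgam and Itgax lie on mouse chromosome 7 (GRCm38), at chr7:127296260-127335138, chr7:128062640-128118491 and chr7:128129547-128150657, all on the plus strand. Itgb2 lies at chr10:77530252-77565708, Itga4 at chr2:79255426-79333123, Itgb1 at chr8:128685654-128733200 and Itgb3 at chr11:104608000-104670476 on the plus strand, and Itgb7 at chr15:102215995-102231944 on the minus strand. All 8 are protein-coding. Itgam overlaps Gm49368 on the same strand (mean normalised read count 3.81) and Itga4 overlaps Cerkl on the other strand (6.88), so reads in shared exons could be left out of, or given to, either gene. RefSeq start regions (GRCm38.p6) were at hand for 5 of the 8 members. Those of Itgam and Itgax are shown because both mRNAs rose with E. coli, and those of Itga4 and Itgb7 because both fell with E. coli alone and neither was lower with IFN-γ + E. coli. Each is the 250 bases before the annotated start, on the strand of the gene and from 5′ to 3′, and capitals mark the letters of a searched motif. Itgb7 has no capitals because its window held no match.
Itgam, plus strand, chr7:128062390-128062639: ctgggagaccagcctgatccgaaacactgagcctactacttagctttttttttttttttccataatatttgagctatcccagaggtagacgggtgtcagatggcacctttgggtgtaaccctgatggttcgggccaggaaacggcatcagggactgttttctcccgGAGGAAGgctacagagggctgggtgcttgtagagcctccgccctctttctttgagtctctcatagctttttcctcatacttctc
Itgax, plus strand, chr7:128129300-128129549: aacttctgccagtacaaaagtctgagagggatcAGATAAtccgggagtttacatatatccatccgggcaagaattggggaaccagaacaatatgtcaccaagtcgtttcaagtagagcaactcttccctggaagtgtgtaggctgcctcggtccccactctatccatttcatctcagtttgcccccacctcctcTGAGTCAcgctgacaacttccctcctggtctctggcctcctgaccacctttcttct
Itga4, plus strand, chr2:79255176-79255425: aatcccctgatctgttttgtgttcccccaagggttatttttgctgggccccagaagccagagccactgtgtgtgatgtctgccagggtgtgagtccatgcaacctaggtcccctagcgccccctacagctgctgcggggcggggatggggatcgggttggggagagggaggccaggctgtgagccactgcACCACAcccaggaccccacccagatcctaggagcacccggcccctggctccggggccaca
Itgb7, minus strand, chr15:102231936-102232185: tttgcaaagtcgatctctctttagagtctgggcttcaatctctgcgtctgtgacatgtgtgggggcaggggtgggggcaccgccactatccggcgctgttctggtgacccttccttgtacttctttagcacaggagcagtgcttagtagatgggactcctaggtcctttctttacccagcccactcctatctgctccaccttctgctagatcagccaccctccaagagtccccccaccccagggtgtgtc

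Motifs of 7 factor families were searched on both strands of these windows and of the 250 bases before all 32851 RefSeq starts of the table. GAGGAAG, letters bound by PU.1, was in the Itgam window on the plus strand and in 10.6% of all windows. AGATAA, bound by GATA factors, and the AP-1 motif TGANTCA were in the Itgax window and in 9.99% and 6.75% of all windows. TGTGGT, a RUNX motif, was in the Itga4 window on the minus strand and in 14.0% of all windows. The interferon motifs TTCNNNGAA (7.02% of windows) and GAAANNGAA (7.13%) and the NF-κB motif GGGNNTTTC (3.72%) were in none of the 4 windows, nor in that of Itgb1. The matches did not overlap each other. They are letters in a short window, and no binding was measured.

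Libraries held 779421 to 7782072 reads on genes, with a median of 4461121. Replicate 3 of both groups in the IL-4 experiment was shallowest, with 779421 reads (ACs) and 849705 reads (IL-4 + ACs), and they held 29 and 31 reads of Itgal and 63 and 169 reads of Itgb3. In the Type 1 experiment each member had at least 77 reads in each library. Of 12 eosinophil markers, none was at 0 in all libraries of a group, a bar that genes near the floor also meet. Their summed level was 10706 to 27682 normalised read counts per library. Alox15 made up much of this sum (group means of 5456 to 9408 in the Type 1 experiment), and the granule protein genes Epx (0.46 to 2.33) and Prg3 (1.89 to 4.74) and the ribonuclease gene Ear1 (6.48 to 12.97) were low there. Macrophage markers were also present, at 10602 to 42312, and are given beside the results below. In the Type 1 experiment their mean sum was above that of the eosinophil markers with ACs (22069 against 18162) and IFN-γ (35991 against 11595). It was below with E. coli (12165 against 19580) and with both (13391 against 17243), and above in both groups of the IL-4 experiment. Sums over different genes do not give shares of cells, so these markers do not test the eosinophil label. In bulk RNA, fewer cells of a type and less RNA per cell cannot be told apart.

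With E. coli, Itgam and Itgax rose and Itga4, Itgb7 and Itgb3 fell, so 5 of 8 members passed the test (limma, Benjamini-Hochberg adjusted p under 0.05 and at least 1.5-fold), beside 10.3% of all genes tested. With IFN-γ, Itgal and Itgb1 rose and Itgb7 and Itgb3 fell, 4 of 8 beside 21.4% of all genes. With IFN-γ + E. coli, Itgal, Itgam, Itgax and Itgb1 rose and Itgb3 fell, 5 of 8 beside 31.9%. With IL-4, none of the 8 passed in limma, beside 1.09% of all genes, 1 of 8 had an unadjusted p under 0.05, and none passed in edgeR or DESeq2. The Type 1 comparisons share their ACs libraries, so a member's values in them are set side by side below without counting as repeats. The median log2 fold change of the 8 was 0.03 with E. coli, 0.19 with IFN-γ, 0.48 with IFN-γ + E. coli and -0.09 with IL-4, beside -0.004, 0.0, -0.05 and -0.01 over all genes. The ranges of the 2 groups of 3 libraries lay apart for 6 members with E. coli (38.3% of all genes), 6 with IFN-γ (42.9%), 6 with IFN-γ + E. coli (48.8%) and 3 with IL-4 (17.3%).

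**Figure D1:**
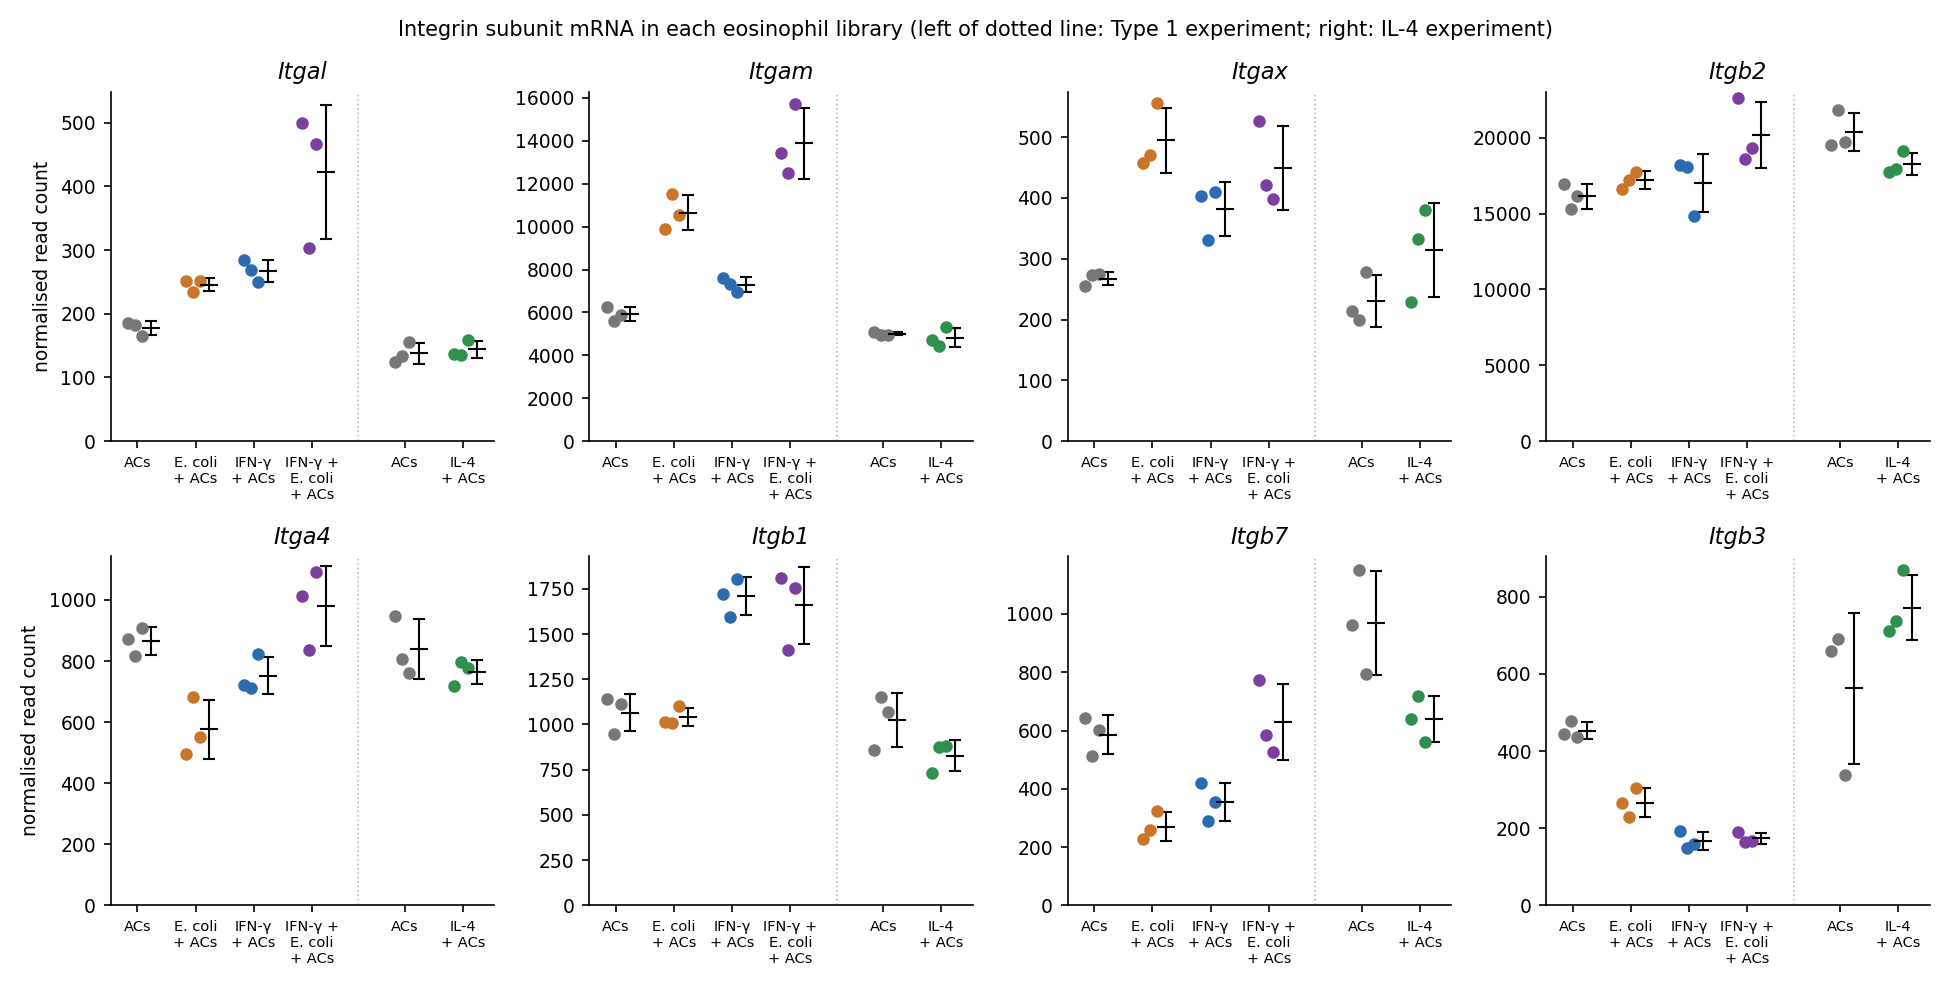
Normalised read count (y axis, from 0) of each integrin subunit in all 18 libraries, by group (x axis), with points for libraries and a bar for the mean ± SD (n = 3). In the Type 1 experiment Itgb3 sits between 436 and 479 with ACs and between 149 and 303 in the 9 stimulated libraries, while Itgb7 is at 228 to 421 with E. coli or IFN-γ alone and at 526 to 774 with IFN-γ + E. coli.

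Itgam encodes alphaM, the chain of Mac-1, and rose with E. coli, alone or with IFN-γ. It was at 6257, 5605 and 5867 normalised read counts with ACs and at 9904, 11504 and 10535 with E. coli + ACs, and the groups did not overlap. This is a 1.80-fold rise (log2 fold change 0.85 ± 0.11 SE, limma adjusted p = 1.7e-05). IFN-γ + ACs gave 7613, 7329 and 6929.9, also above all ACs libraries, but at 1.23-fold it was under the fold minimum. IFN-γ + E. coli gave 13449, 12505 and 15711, the highest of the 6 groups, with no overlap with E. coli alone. The rise over ACs was 2.34-fold (log2 1.23 ± 0.11, limma adjusted p = 3.2e-08). Between IL-4 + ACs (4706, 4433 and 5309.5) and its ACs (5080.2, 4961 and 4954) the ranges overlapped and the fold was 0.961 (95% confidence interval 0.805 to 1.15).

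Itgax encodes alphaX, used as a marker of dendritic cells and macrophages, and had 200 to 632 reads per library in the Type 1 experiment. The ACs libraries held 255, 273 and 275, the E. coli + ACs libraries 458, 471 and 556. Every E. coli library was above every ACs library, a 1.84-fold rise (log2 0.88 ± 0.14, limma adjusted p = 0.00024). With IFN-γ + E. coli the values were 527, 421 and 399, a 1.67-fold rise over ACs (limma adjusted p = 0.0004) in a range that overlapped that of E. coli alone. With IFN-γ the values of 404, 330.1 and 410.4 were above all ACs libraries, at 1.42-fold (limma adjusted p = 0.012), under the fold minimum. Without IFN-γ replicate 2 this change was at log2 0.61 and passed (limma adjusted p = 0.0082). IL-4 gave 229, 332 and 380.35 against 214, 199 and 279, which overlapped (1.35-fold, 95% confidence interval 0.958 to 1.90).

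Itgal encodes alphaL of LFA-1. Its levels were 185, 182 and 165 with ACs, 251, 234 and 252 with E. coli, 285, 268 and 250.4 with IFN-γ, and 499, 303 and 466 with IFN-γ + E. coli. All 9 stimulated libraries were above all 3 ACs libraries. The combination gave a 2.32-fold rise (log2 1.22 ± 0.17, limma adjusted p = 1e-05), while E. coli alone gave 1.38-fold and did not pass (limma adjusted p = 0.071). The rise with IFN-γ alone was 1.51-fold (log2 0.59 ± 0.17, limma adjusted p = 0.012), just past the fold minimum. It did not pass without ACs replicate 3 (log2 0.54, limma adjusted p = 0.055), without IFN-γ replicate 1 (log2 0.55, limma adjusted p = 0.044), with edgeR (log2 0.57), with DESeq2 (0.58), with a pseudocount of 5 (0.58) or with rescaling to a common upper quartile (0.50). In the IL-4 experiment the groups overlapped, with 124, 133 and 155 for ACs and 137, 135 and 159 for IL-4 + ACs.

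Itgb2 encodes the beta2 chain that all 3 of these alpha chains need, and it passed in no comparison with ACs. It was at 16969, 15330.0 and 16152 with ACs, 16608, 17252 and 17772 with E. coli, 18200.1, 18104 and 14837 with IFN-γ, and 22634, 18596 and 19346 with IFN-γ + E. coli. Only the combination lay above all ACs libraries, at 1.25-fold (95% confidence interval 1.06 to 1.46, limma adjusted p = 0.029), under the fold minimum. The fold was 1.07 with E. coli (0.908 to 1.25) and 1.05 with IFN-γ (0.896 to 1.24). IL-4 + ACs (17742, 17940.5 and 19110.2) lay below its ACs (19540.35, 21809 and 19741) with no overlap, at 0.898-fold (0.755 to 1.07). So Itgam, Itgax and Itgal rose with IFN-γ + E. coli while Itgb2 stayed under 1.5-fold.

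Itga4 encodes the alpha4 chain of VLA-4 and of alpha4beta7. It was at 871, 816 and 907 with ACs and at 495, 682 and 552 with E. coli, and the groups did not overlap. The fall was to 0.662-fold (log2 fold change -0.60 ± 0.14, limma adjusted p = 0.0052), close to the fold minimum. It did not pass without ACs replicate 3 (log2 -0.56), without E. coli replicate 1 (-0.49) or without E. coli replicate 3 (-0.57), although the limma adjusted p was between 0.026 and 0.044 in all 3 cases. IFN-γ (723, 712 and 823) and IFN-γ + E. coli (1012, 837 and 1093) both overlapped the ACs range, at 0.87-fold and 1.13-fold. IL-4 + ACs (719, 797 and 776) overlapped its ACs (948, 806 and 761) as well.

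Itgb7 encodes the beta7 chain, a partner of alpha4. It was at 642, 513 and 602 with ACs, at 228, 259 and 325 with E. coli and at 421, 290.0 and 355 with IFN-γ. All 6 libraries with a single Type 1 stimulus lay below all 3 ACs libraries. The fall was to 0.46-fold with E. coli (log2 -1.12 ± 0.17, limma adjusted p = 0.00016) and to 0.603-fold with IFN-γ (log2 -0.73 ± 0.17, limma adjusted p = 0.0037). With both stimuli the values were 774, 585 and 526, across the ACs range (1.06-fold, 95% confidence interval 0.826 to 1.37). In the IL-4 experiment Itgb7 was at 962.5, 1151 and 793 with ACs and at 639, 718 and 560.25 with IL-4, which did not overlap. That difference (0.664-fold, log2 -0.59 ± 0.17) did not pass (limma adjusted p = 0.23). Without the shallow replicate 3 libraries of both groups it was -0.64 and passed (limma adjusted p = 0.0066).

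Itgb1 encodes beta1, the partner of alpha4 in VLA-4 and of many matrix receptors, and it followed IFN-γ rather than E. coli. The ACs libraries (1138, 947 and 1112) and the E. coli libraries (1015, 1009.7 and 1099.6) overlapped, at 0.98-fold (95% confidence interval 0.825 to 1.16). IFN-γ gave 1724, 1597 and 1806 and IFN-γ + E. coli gave 1808, 1412 and 1755, all above both. The rise was 1.61-fold with IFN-γ (log2 0.68 ± 0.12, limma adjusted p = 0.00022) and 1.55-fold with IFN-γ + E. coli (log2 0.63 ± 0.12, limma adjusted p = 0.0003). The latter fell under the fold minimum without ACs replicate 2 (log2 0.55), without IFN-γ + E. coli replicate 1 (0.57) and when libraries were rescaled to a common upper quartile (0.49). IL-4 + ACs (731, 875 and 879) overlapped its ACs (860.2, 1149.9 and 1067).

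Itgb3 encodes beta3 and was the member that fell with each Type 1 stimulus. From 445, 479 and 436 with ACs it was at 266, 229.7 and 303 with E. coli, at 194, 149 and 158 with IFN-γ and at 189.6, 165 and 167 with IFN-γ + E. coli. None of these 9 libraries reached the ACs range, and those with IFN-γ lay below those with E. coli alone. The fall was to 0.586-fold with E. coli (log2 -0.77 ± 0.15, limma adjusted p = 0.0015), to 0.368-fold with IFN-γ (log2 -1.44 ± 0.15, limma adjusted p = 5.7e-07) and to 0.384-fold with IFN-γ + E. coli (log2 -1.38 ± 0.15, limma adjusted p = 6.9e-07). Of the alternative settings run, none took these 3 calls away. In the IL-4 experiment Itgb3 was at 660.2, 689.8 and 338 with ACs and at 710.3, 736 and 869 with IL-4. The ranges did not overlap, but the lowest ACs value is that of the shallow replicate 3 library (63 reads), and the 1.43-fold difference did not pass (95% confidence interval 0.974 to 2.11, limma adjusted p = 0.55).

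**Figure D2:**
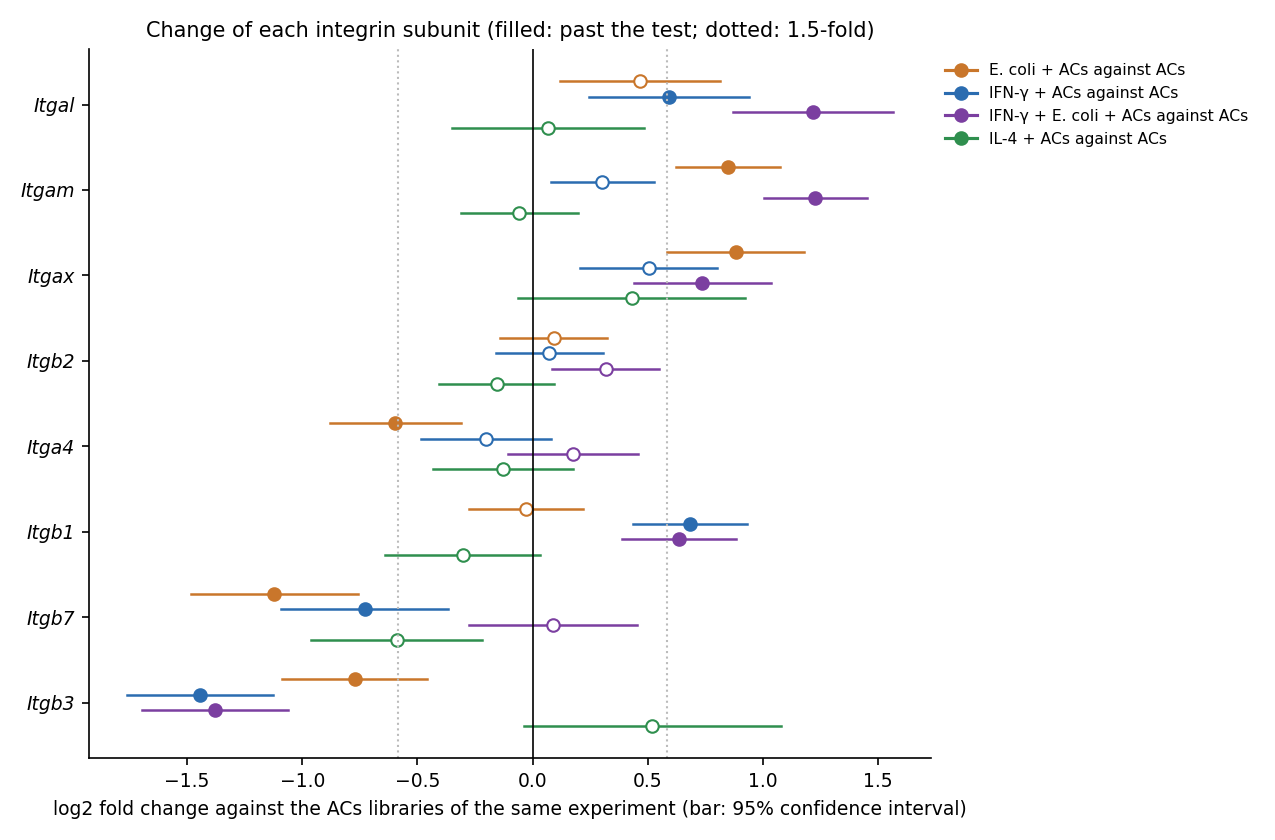
log2 fold change of each integrin subunit (y axis) against the ACs libraries of its own experiment (x axis), with 95% confidence intervals from limma, filled points for changes past the test and dotted lines at 1.5-fold. Itgb3 is at -0.77, -1.44 and -1.38 with the 3 Type 1 stimuli and at 0.52 with IL-4, and Itgb2 is never filled.

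Whether IFN-γ altered the response to E. coli was tested as the E. coli change with IFN-γ minus the E. coli change without it, on the log2 scale. In the combination E. coli followed IFN-γ, so order and exposure time cannot be told apart from the combination itself. Of the 8 members, 3 passed, beside 7.44% of all genes, and all 3 had a positive difference, beside 3.16% of all genes. For Itgb7, E. coli lowered the level without IFN-γ (log2 -1.12) and raised it with IFN-γ (log2 0.82 ± 0.17, limma adjusted p = 0.0024), a difference of 1.94 ± 0.25 (limma adjusted p = 5.6e-05). All 3 IFN-γ + E. coli libraries (526 or more) were above all 3 with IFN-γ alone (421 or less), the opposite of the order without IFN-γ. For Itga4 the changes were -0.60 and 0.38, a difference of 0.97 ± 0.19 (limma adjusted p = 0.0037), although the 0.38 with IFN-γ did not itself pass (limma adjusted p = 0.057). Alpha4 and beta7 chains form 1 receptor, and with both stimuli both mRNAs were above the lowest ACs library in all 3 libraries.

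For Itgb3 the E. coli changes were -0.77 without and 0.06 with IFN-γ, a difference of 0.84 ± 0.21 (limma adjusted p = 0.02). This call was lost when all 18 libraries were fitted together (limma adjusted p = 0.097) and without ACs replicate 2, E. coli replicate 1, E. coli replicate 2 or IFN-γ replicate 2 (log2 0.73 to 0.84, limma adjusted p of 0.055 to 0.061). For Itgax the difference went the other way, 0.88 without and 0.23 with IFN-γ, and did not pass (-0.65 ± 0.20, limma adjusted p = 0.054). It did pass without IFN-γ replicate 2 (-0.75, limma adjusted p = 0.045), without IFN-γ + E. coli replicate 1 (-0.77, limma adjusted p = 0.029), with DESeq2 (-0.62, adjusted p = 0.033), with a filter at a mean of 50 (limma adjusted p = 0.04) and with rescaling to a common upper quartile (-0.67, limma adjusted p = 0.043). For Itgam and Itgal the difference did not pass, at 0.08 (95% confidence interval -0.24 to 0.39) and 0.16 (-0.33 to 0.65). Itgb1 and Itgb2 gave -0.02 (-0.37 to 0.33) and 0.15 (-0.18 to 0.48).

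**Figure D3:**
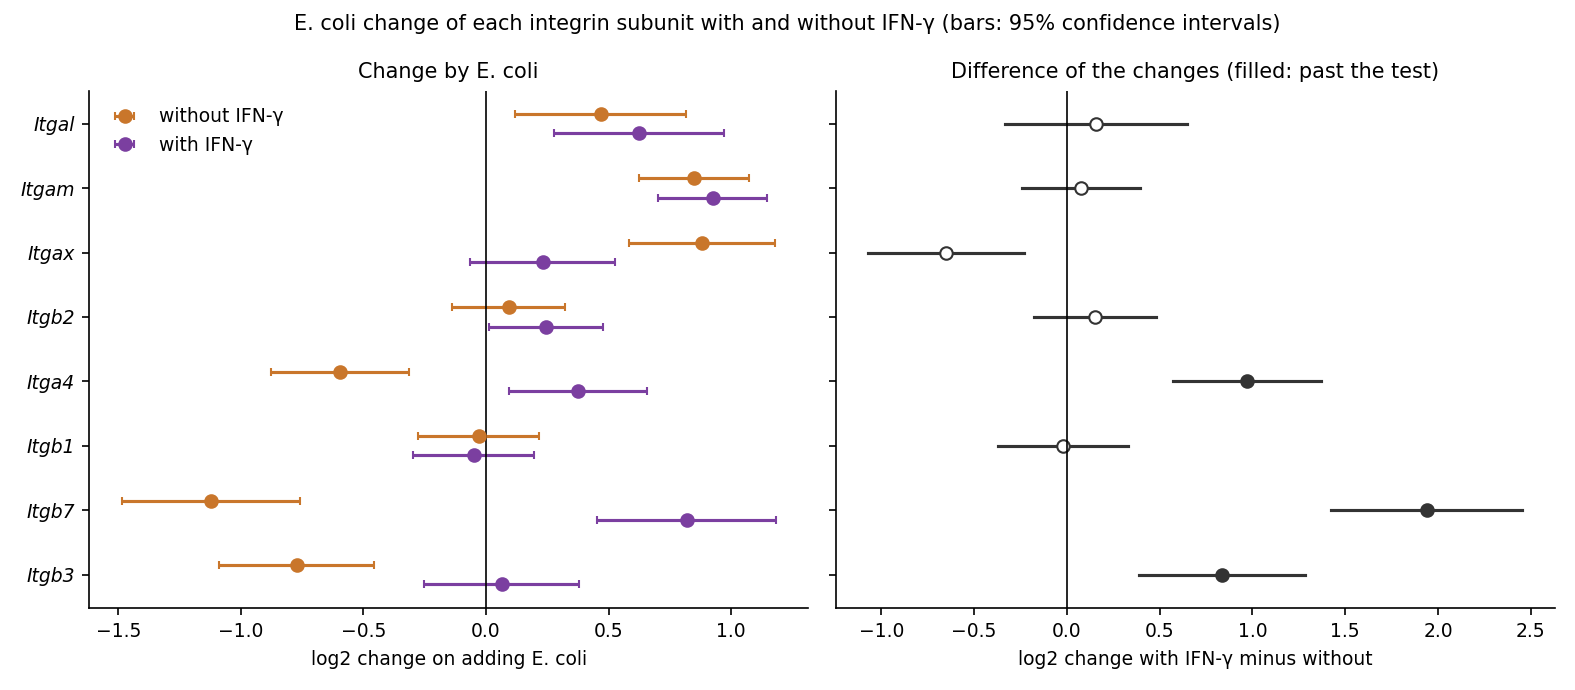
Left, log2 change of each subunit on adding E. coli without IFN-γ (E. coli + ACs against ACs) and with IFN-γ (IFN-γ + E. coli + ACs against IFN-γ + ACs). Right, the difference of these changes, filled where past the test, and all bars are 95% confidence intervals: Itgb7 crosses from -1.12 to 0.82 and Itga4 from -0.60 to 0.38.

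The stimulated groups were also compared with each other. IFN-γ + E. coli against E. coli alone changed 5 of 8 members (19.4% of all genes), with Itgb7 2.31-fold, Itga4 1.70-fold, Itgal 1.68-fold and Itgb1 1.58-fold higher and Itgb3 0.656-fold. The Itgb1 rise did not pass with rescaling to a common upper quartile (log2 0.56). The fall of Itgb3 was near the fold minimum and did not pass with array weights (-0.58) or without E. coli replicate 3 (log2 -0.51) or without IFN-γ + E. coli replicate 2 (-0.57) or replicate 3 (-0.58). Against IFN-γ alone, IFN-γ + E. coli changed 3 of 8 (14.6% of all genes), all of them upward (5.96% of all genes): Itgam 1.90-fold, Itgb7 1.76-fold and Itgal 1.54-fold. Itgal did not pass there without IFN-γ + E. coli replicate 1 (log2 0.49) or replicate 3 (0.54) or without IFN-γ replicate 3 (0.58), or with rescaling to a common upper quartile (0.58). IFN-γ against E. coli changed 2 of 8 (16.6% of all genes), with Itgb1 at 1.64-fold and Itgb3 at 0.628-fold, and the Itgb3 call was lost without E. coli replicate 3 (log2 -0.57). Itgam was at 0.686-fold in IFN-γ against E. coli (limma adjusted p = 0.00094), just under the fold minimum, and passed without E. coli replicate 1 (log2 -0.60).

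The Type 1 and IL-4 changes were compared directly, each against its own ACs libraries. The change in Itgb3 with IL-4 exceeded that with IFN-γ by 1.96 ± 0.29 (log2, limma adjusted p = 4.6e-05), that with IFN-γ + E. coli by 1.90 (limma adjusted p = 4.7e-05) and that with E. coli by 1.29 (limma adjusted p = 0.0087). The Itgb3 change in the IL-4 experiment thus differed from all 3 Type 1 changes, although the IL-4 change itself did not pass. It includes the shallow ACs replicate 3 (338, against 660.2 and 689.8 in the other ACs libraries). IL-4 and the Type 1 stimuli were given in separate experiments, so stimulus and experiment cannot be told apart in any of these differences. Itgam changed less with IL-4 than with E. coli (log2 difference -0.91, limma adjusted p = 0.00065) or IFN-γ + E. coli (-1.29, limma adjusted p = 2.5e-06). For Itgb1 the IL-4 change was negative (log2 -0.30, not past the test) and the IFN-γ (0.68) and IFN-γ + E. coli (0.63) changes were positive. The differences were -0.99 (limma adjusted p = 0.00066) and -0.94 (limma adjusted p = 0.0008). Itgal changed less with IL-4 than with IFN-γ + E. coli (-1.15, limma adjusted p = 0.0013). In all, 2 of 8 members passed against E. coli (4.43% of all genes), 2 of 8 against IFN-γ (14.3%) and 4 of 8 against IFN-γ + E. coli (20.4%). Itgb7 did not pass in the last of these (log2 difference -0.68, limma adjusted p = 0.062), but did with edgeR (-0.70), DESeq2 (-0.72), array weights (-0.71) and the replicate block (-0.68), and without IFN-γ + E. coli replicate 3 (-0.80) or replicate 3 of the ACs libraries of the IL-4 experiment (-0.81).

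The ACs libraries of the experiments were compared as well. Of the 8 members 1 passed, Itgb7 (19.5% of all genes passed), at 1.64-fold in the IL-4 experiment (log2 0.71 ± 0.18, limma adjusted p = 0.0057), and it did not pass without replicate 2 of the ACs libraries of the IL-4 experiment (log2 0.58). This difference cannot be told apart from the experiment. Over the 6 groups, Itgb7 was thus highest with ACs in the IL-4 experiment (mean 969), then at 639, 628 and 586 with IL-4, IFN-γ + E. coli and ACs, which overlapped, and lowest with IFN-γ (355) and E. coli (271), which also overlapped. Itgb3 ran from IL-4 (772) through the ACs groups (563 and 453) and E. coli (266) to IFN-γ + E. coli (174) and IFN-γ (167). The last pair of Itgb3 groups overlapped.

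Of 19 other integrin subunit genes, 8 were abundant enough to test, and Itgad, whose gene lies next to Itgax and whose chain also pairs with beta2, was at 0 in all libraries of 5 of the 6 groups. The shares of all genes called, for this list and those below, were 10.3% with E. coli, 21.4% with IFN-γ, 31.9% with IFN-γ + E. coli and 1.09% with IL-4. No list was tested as a set. With E. coli, 2 of 8 rose, Itgb8 (log2 1.01 ± 0.30) and Itga5 (0.83 ± 0.26), and 2 fell, Itga2 (-1.82 ± 0.39) and Itga6 (-1.27 ± 0.23). With IFN-γ, Itga9 (1.47 ± 0.30) and Itga5 (1.21 ± 0.26) rose and Itga2 (-2.87 ± 0.39) and Itgb8 (-2.08 ± 0.30) fell. Itga5 encodes the alpha chain of the fibronectin receptor, whose beta chain is beta1. With IFN-γ + E. coli, Itgav (0.71 ± 0.14) and Itga9 (0.85) rose and Itga2 (-3.37 ± 0.39) and Itga6 (-1.73 ± 0.23) fell. Itga9 is named there although its mean was 46.4, because only 2 rose. None of the 8 passed with IL-4 (limma), where Itga6 was at -1.90 (limma adjusted p = 0.083). Neither alpha chain that pairs with beta3 passed as lower. Itgav was at 336, 334, 389 and 548 with ACs, E. coli, IFN-γ and IFN-γ + E. coli. Itga2b was at 1350.3, 1194, 1095 and 1231, lower in mean with each stimulus (log2 -0.18, -0.33 and -0.14), and none of its changes passed.

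Among 20 integrin ligand genes, 9 were tested in the Type 1 experiment. Thbs1, which encodes thrombospondin-1, rose with all 3 stimuli (log2 1.46, 2.16 and 2.84 in the order E. coli, IFN-γ and both), and Tgfbi, which encodes a matrix ligand, fell with all 3 (-1.33, -1.89 and -3.11). Icam1, a ligand of LFA-1 and Mac-1, went from a mean of 55.1 with ACs to 111 with E. coli (log2 1.00 ± 0.17, limma adjusted p = 0.00055), 236 with IFN-γ (2.08 ± 0.17, limma adjusted p = 3.3e-08) and 297 with IFN-γ + E. coli (2.42 ± 0.17, limma adjusted p = 2.7e-09). Vcam1, the ligand of VLA-4, rose from a mean of 12.4 to 71.6 with IFN-γ (2.38 ± 0.35, limma adjusted p = 4e-05) and to 33.6 with both (1.38 ± 0.35, limma adjusted p = 0.0043). Fn1, which encodes fibronectin, fell with E. coli (-1.50) and with both (-1.31). In counts, 2 rose and 2 fell with E. coli (10.3% of all genes called), 3 and 1 with IFN-γ (21.4%) and 3 and 3 with both (31.9%). None of 10 passed with IL-4 (1.09%). Madcam1, the beta7 ligand of gut vessels, was at 0 in all libraries.

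Talin, kindlins, Rap1 and their partners switch integrins on from inside the cell. Of 19 such genes tested, 1 rose with E. coli (10.3% of all genes called). With IFN-γ 2 rose and 3 fell (21.4%), and with IFN-γ + E. coli 4 rose and 1 fell (31.9%). Fyb, an adaptor that carries signals to beta2 integrins, rose in all 3 comparisons (log2 0.79, 0.66 and 1.49). Apbb1ip, which encodes RIAM, the link between Rap1 and talin, rose with both stimuli (1.03 ± 0.12, limma adjusted p = 1e-06). Cyth1, which encodes a binding partner of the beta2 tail, rose with IFN-γ (1.03 ± 0.26). Rassf5, the Rap1 effector RAPL, fell with IFN-γ (-0.93 ± 0.12), as did Flna, filamin A, which competes with talin for beta tails (-1.33 ± 0.13). Rasgrp2, at a mean of only 36.2 with ACs, fell with IFN-γ (-2.41 ± 0.47) and with both (-2.55 ± 0.47). None of 20 passed with IL-4 (1.09% of all genes called).

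Downstream, 21 genes of integrin signalling and linkage to actin were tested. With E. coli 2 rose and none fell (10.3% of all genes called), with IFN-γ 2 rose and 2 fell (21.4%), and with both 5 rose and 3 fell (31.9%). None passed with IL-4 (1.09%). Ptk2b, the kinase PYK2, rose with E. coli (log2 0.74 ± 0.12) and with both (1.30 ± 0.12), and Src rose from a mean of 6.72 to 25.5 with E. coli (1.90 ± 0.41), 32.6 with IFN-γ (2.28 ± 0.41) and 62.1 with both (3.18 ± 0.41). Parvg, a parvin of blood cells that links integrin-linked kinase to actin, fell with IFN-γ (-1.38 ± 0.17) and with both (-0.90 ± 0.17), Fgr, a Src family kinase, with IFN-γ (-0.64 ± 0.11), and Actn1, an actin cross-linker, with both (-1.15 ± 0.24). Of 7 selectin and rolling genes tested, Selp (P-selectin) rose with E. coli (0.82 ± 0.16) and fell with both (-0.83 ± 0.16). Cd44, the hyaluronan receptor, rose with both (1.28 ± 0.15) and St3gal4, a sialyltransferase of selectin ligands, fell with IFN-γ (-1.56 ± 0.18) and with both (-1.36 ± 0.18). In counts, 1 of the 7 rose with E. coli (10.3% of all genes called), 1 rose and 1 fell with IFN-γ (21.4%) and 1 rose and 2 fell with both (31.9%). None of 6 passed with IL-4 (1.09%).

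The median log2 fold changes of these 5 lists, in the order other subunits, ligands, activation, signalling and selectins, were 0.08, 0.02, 0.16, 0.11 and 0.31 with E. coli and -0.19, 0.05, 0.01, 0.05 and -0.01 with IFN-γ. With both stimuli they were -0.11, -0.38, 0.16, 0.14 and 0.06, and with IL-4 -0.09, -0.28, -0.10, 0.02 and 0.11. All genes had medians between -0.05 and 0.0 in these comparisons.

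**Figure D4:**
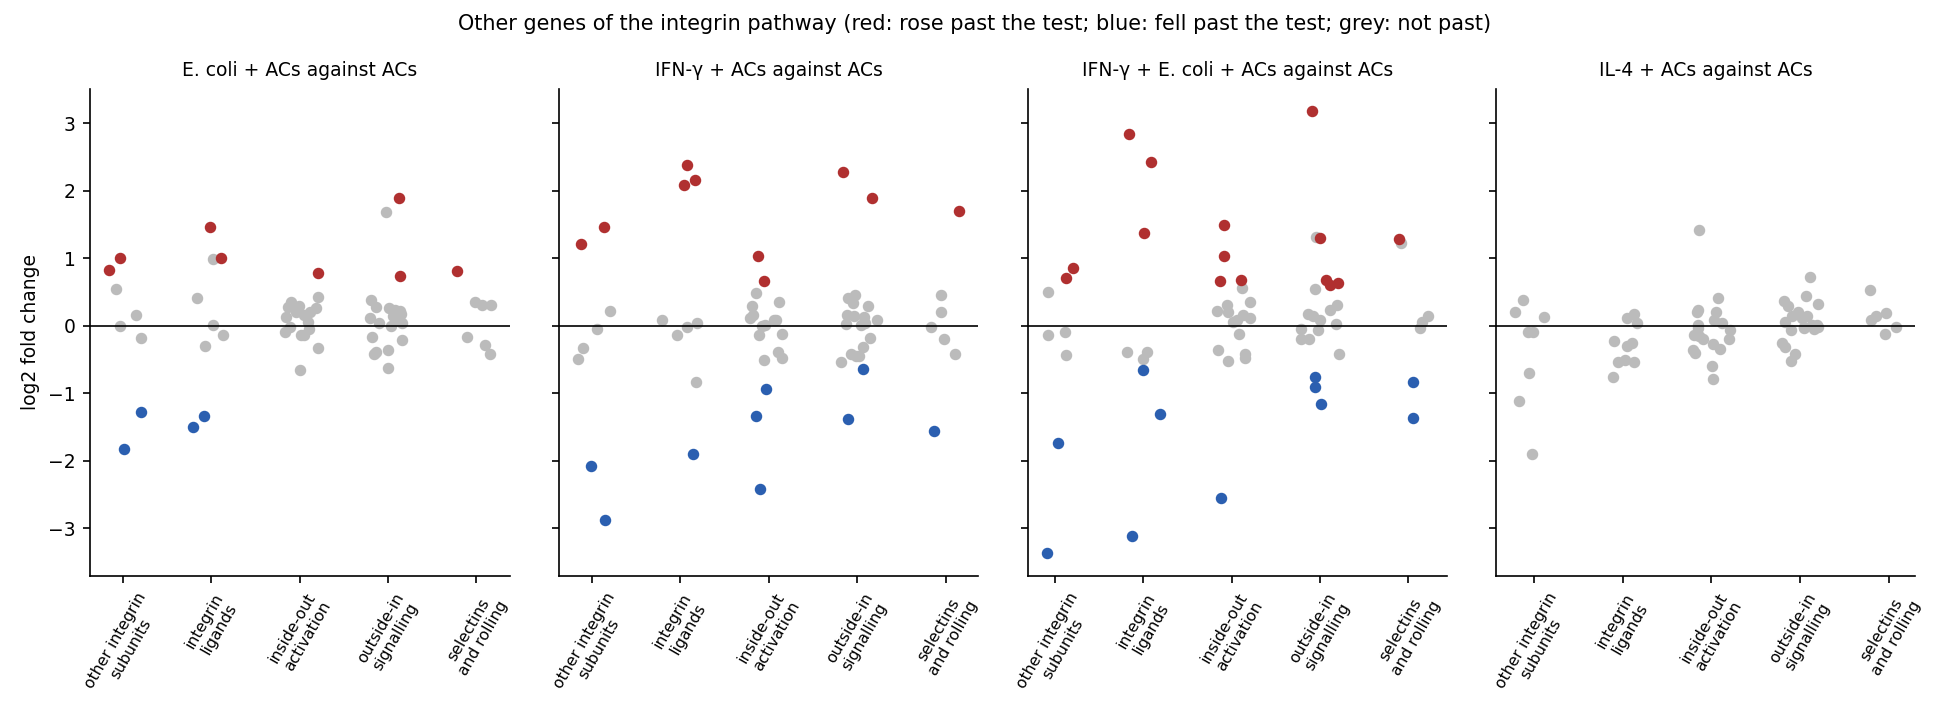
log2 fold change (y axis) of every tested gene in 5 lists of the integrin pathway (x axis) in the 4 comparisons with ACs, red or blue where past the test. Icam1 and Thbs1 are red in the panel of IFN-γ + E. coli at 2.42 and 2.84 and Tgfbi is blue at -3.11, and no point is coloured with IL-4.

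Macrophages, neutrophils, lymphocytes and platelets also express integrins, and their markers moved between groups. The 14 macrophage markers summed to 19137 to 24594 normalised read counts with ACs, 10602 to 13150.0 with E. coli, 31582 to 41424 with IFN-γ and 12943 to 14052 with both. In the order E. coli, IFN-γ and both, 7, 2 and 8 of 14 fell and 0, 5 and 3 rose (10.3%, 21.4% and 31.9% of all genes called). In the E. coli libraries, where the macrophage sum was lower, Itgam and Itgax were higher and Itga4, Itgb7 and Itgb3 lower. In the IFN-γ libraries, where it was higher, Itgal and Itgb1 were higher and Itgb7 and Itgb3 lower. With both stimuli, where it was lower, Itgal, Itgam, Itgax and Itgb1 were higher and Itgb3 lower. In the IL-4 experiment the macrophage sum was 28574 to 42312 with ACs and 22612 to 37635 with IL-4 (2 of 14 fell, beside 1.09% of all genes called). Eosinophil markers summed to 17333 to 18711, 18797 to 20081, 10706 to 12257 and 15843 to 18537 in the Type 1 groups in the same order. Of 9 eosinophil markers tested there, 1 rose and 1 fell with E. coli, 0 rose and 5 fell with IFN-γ, and 1 rose and 3 fell with both (10.3%, 21.4% and 31.9% of all genes called). With IL-4, 2 of 12 rose and 0 fell (1.09%). Siglecf, the target of the beads, fell with IFN-γ (log2 -0.99) and with both (-0.76).

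Of 10 neutrophil markers, Mpo and Elane were at 0 in all libraries with a Type 1 stimulus. The sum was 1609 to 1902, 2313 to 2599, 2023 to 2536 and 1128 to 1421. With E. coli, IFN-γ and both, 3, 3 and 4 of the 5 tested rose (10.3%, 21.4% and 31.9% of all genes called), and Retnlg fell with both (log2 -0.86). Of the 8 B cell markers only 2 were abundant enough to test, and 1 of these fell with E. coli, with IFN-γ and with both (10.3%, 21.4% and 31.9% of all genes called). All 8 summed to 903 to 1048 with ACs, 311 to 322 with E. coli, 98.9 to 183 with IFN-γ and 158 to 173 with both. Itgb7 was also lower with E. coli and with IFN-γ, while with both stimuli it was at its ACs level and this sum was not. Thymocyte markers, which the ACs could carry, summed to 172 to 233, 246 to 305, 107 to 171 and 102 to 178. Of the 9 platelet and megakaryocyte markers, Gp1bb and Gp9 were at 0 in all libraries, Pf4 fell with IFN-γ (log2 -0.60) and with both (-1.42), and the sum was 2987 to 3720, 3129 to 3743, 2169 to 2695 and 1845 to 2209. Mast cell and dendritic cell markers summed to at most 68.8 and 82.0 in any library. The part of any of these cells in the integrin changes was not tested.

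The genes whose levels ran most like each member over the 18 libraries, each centred on its experiment, were listed among 6906 genes by Pearson r, as a description of libraries that share stimuli. For Itgb7 they were Mtus1 (r = 0.898), Tmem71 (0.866) and Fosl2 (0.82), and for Itga4 they were Tmem71 (0.855), Dmtf1 (0.842) and Fnip1 (0.842), so Tmem71 is in both sets. For Itgal they were Abcc1 (0.96), Epb41 (0.95) and Tnfaip3 (0.945). For Itgam they were Irak3 (0.964), Csf2rb2 (0.956) and Slc38a2 (0.95), and for Itgax Ptgs1 (0.896), Nek6 (0.892) and Mpp6 (0.885). For Itgb2 they were Copa (0.882), Inpp5d (0.83) and Zfp276 (0.823), for Itgb1 Stxbp3 (0.918), Cept1 (0.898) and Stx2 (0.897), and for Itgb3 Scp2 (0.916), Pglyrp1 (0.912) and Cenpa (0.912). Among the members themselves r was 0.81 for Itgal with Itgam, 0.79 for Itga4 with Itgb7, 0.33 for Itgb1 with Itgb7 and -0.73 for Itgb1 with Itgb3.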

How the data were processed

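RNA of 18 eosinophil libraries was measured by CEL-Seq2. The deposited values are a signal per gene, read counts that the authors divided by DESeq2 size factors. The submitters' processing notes name FastQC 0.11.5, cutadapt 1.10, TopHat2 2.1.0, Bowtie2 2.2.6, HTSeq 0.6.1 and DESeq2 1.26.0, and GRCm38. The paper's methods describe the processing in other terms in places, and the strand setting of counting is not given in the sources used here. Symbols came from GENCODE vM21 (54409 of 54446 identifiers). Groups followed the labels, and each stimulus was compared with ACs of its own experiment. Which experiment an ACs library belonged to was inferred from the wording of its description.

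Values were tested as log2(value + 1) with limma 3.58.1 (lmFit, eBayes with trend) in R 4.3.3, over genes with a mean of at least 10, with Benjamini-Hochberg adjustment over all genes. Calls needed adjusted p under 0.05 and 1.5-fold, the study's thresholds. Fold changes are on the log2(value + 1) scale. Dividing by the value of 1 read gave whole reads for 100.0% of values (within 0.02 reads), on which edgeR 4.0.16 and DESeq2 1.42.0 were run as alternatives. The other alternatives were another pseudocount, filter, scaling, fold minimum, set of libraries, array weights, a replicate block and each library left out. Code was tested on simulated data. The deviations of same-numbered libraries correlated over 0.1 in every pair only between IFN-γ + ACs and IFN-γ + E. coli + ACs (r = 0.17, 0.18 and 0.25), from the data and not from the labels, and the block changed no member's call in that comparison. Members and lists were chosen with earlier results of these data known. Named genes were all members, every called other subunit, and up to 2 called rises and 2 falls per list and comparison, each averaging 50 or more in 1 of the compared groups. Some genes named in a comparison by this rule are also given in others. Some, such as Rasgrp2 and the low eosinophil markers, are named outside it. Libraries held 779421 to 7782072 reads, and 3 reads are worth 16.1 normalised counts in the shallowest.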

Additional observations from a re-analysis of the deposited data

Results flagged for a closer look

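The change on adding E. coli differed between eosinophils cultured with and without IFN-γ for 3 integrin subunits, by a test of the difference itself (limma, adjusted over 10166 genes). The difference was 1.94 on the log2 scale for Itgb7, 0.97 for Itga4 and 0.84 for Itgb3. Itgb7 was lower in 3 of 3 E. coli libraries than in all ACs libraries, and higher in 3 of 3 IFN-γ + E. coli libraries than in all IFN-γ libraries. The Itgb3 difference was lost in 5 of the alternatives, with limma adjusted p values of 0.055 to 0.097. E. coli followed IFN-γ in the combination, and the part of this order in the differences was not tested.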

How the results depend on the processing

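Of 1784 values of the 8 members over 12 comparisons and all alternatives, 1733 kept their side of the threshold, 28 lost a call and 23 gained one. No called value changed sign, while some values short of the test did. In the comparisons with ACs, 25 of 32 results never changed. With IL-4, leaving out both replicate 3 libraries moved the members called from 0 to 1 and all genes called from 116 to 656. All genes called there were 208 without the filter, 745 with array weights, 212 with edgeR, 209 with DESeq2, 221 with all 18 libraries fitted together, 74 with the replicate block and 47 to 130 with 1 library left out. Interaction calls over all genes (756) were 495 with all 18 libraries and 400 to 1026 with 1 left out. For IL-4 minus E. coli (461) they were 1431 with array weights and 711 with DESeq2, and for IL-4 minus IFN-γ (1486) they were 2423 with array weights. Members called without a fold minimum were 4 (2 with it) for IFN-γ against E. coli and 2 (1 with it) between the ACs groups, and 1 to 3 and 0 to 1 with 1 library left out. Upper-quartile rescaling moved the median of all genes from -0.05 to -0.18 with IFN-γ + E. coli, where Itgb7 went from 0.09 to -0.05 and stayed short of the test. Outside the pair given under the processing, the deviations of same-numbered libraries correlated at r of -0.12 to 0.12, which cannot show whether they were paired. In the IL-4 experiment both replicate 3 libraries also shared low depth (779421 reads with ACs and 849705 with IL-4 + ACs). The replicate block changed 1 member's call, Itgb7 in IL-4 minus IFN-γ + E. coli (-0.68, limma adjusted p = 0.037 against 0.062), which 5 other alternatives also called (adjusted p of 0.014 to 0.037). No paired analysis was possible for ACs against ACs because the numbers are nested in the experiments. The cause of these moves was not tested.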
